A study of Mus musculus with 8 samples.

Results

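The Hox genes are a family of transcription factor genes that carry a homeobox, and here they are all rows of the deposited mouse table whose symbol is Hoxa, Hoxb, Hoxc or Hoxd followed by a number. This rule found 39 of 52195 genes, 11 in the Hoxa cluster, 10 in Hoxb, 9 in Hoxc and 9 in Hoxd, and it used no measured value. Antisense Hox transcripts were left out. The libraries came from kidney, lung, liver and small intestine of C57BL/6 mice (male C57BL/6J by the study's methods) aged 6 to 10 weeks, untreated and of no stated modified genotype, with 2 libraries per tissue and 8 in all. Whole organs were ground, polyadenylated RNA was sequenced, and the study used these bulk profiles to judge methods that estimate cell type proportions. By the study's account all 4 tissues were taken from each mouse and the 2 libraries of a tissue came from different mice, while neither the labels nor the methods read here tie a replicate number to a mouse or say which stretch of the small intestine was taken, and each organ stood as the mixture of all its cells.

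Hox genes encode proteins that bind DNA through the homeodomain and give cells their position along the head to tail axis of the embryo. Within each cluster the genes lie in the order in which they are used along that axis, from paralogue number 1 at the anterior end to 13 at the posterior end, and genes of the same number in different clusters descend from a common ancestor. Many adult cells, stromal cells in particular, keep the Hox pattern of the place where their tissue formed. The Hoxa cluster lies on chromosome 6 (GRCm38, chr6:52155590-52260880, minus strand), Hoxb on chromosome 11 (chr11:96194316-96368256, plus strand), Hoxc on chromosome 15 (chr15:102921103-103036852, plus strand) and Hoxd on chromosome 2 (chr2:74668310-74765142, plus strand). The span of a cluster was between 96.8 kb for Hoxd and 173.9 kb for Hoxb, and all members of a cluster were on the same strand.

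The homeobox, the 180 bases that encode the homeodomain, was found in all 39 genes in the GENCODE M21 transcripts (GRCm38), from which the sequences are taken, each 5′ to 3′. It is shown for the highest member of each cluster in the tissue where the summed level of that cluster was highest, because these genes led their clusters there and because the similarity of the sequences bears on whether reads can be told apart. The capitals mark the 18 bases that encode the conserved core of the recognition helix, which lies in the major groove of DNA.
Hoxa5: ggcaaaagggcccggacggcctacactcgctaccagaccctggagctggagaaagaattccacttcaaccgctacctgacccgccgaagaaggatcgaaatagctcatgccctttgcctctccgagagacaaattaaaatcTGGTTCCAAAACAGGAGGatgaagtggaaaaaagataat
Hoxb7: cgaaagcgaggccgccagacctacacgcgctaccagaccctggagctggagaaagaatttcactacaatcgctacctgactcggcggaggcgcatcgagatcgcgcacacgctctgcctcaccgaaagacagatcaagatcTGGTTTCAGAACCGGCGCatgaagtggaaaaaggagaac
Hoxc10: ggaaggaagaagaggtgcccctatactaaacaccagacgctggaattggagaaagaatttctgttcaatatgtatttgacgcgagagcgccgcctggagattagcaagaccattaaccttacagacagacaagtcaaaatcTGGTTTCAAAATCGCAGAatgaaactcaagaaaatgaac
Hoxd8: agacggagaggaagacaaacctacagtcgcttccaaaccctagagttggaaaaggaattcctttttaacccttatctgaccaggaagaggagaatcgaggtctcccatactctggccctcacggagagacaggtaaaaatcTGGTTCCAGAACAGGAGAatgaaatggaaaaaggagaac
Of these, Hoxa5 and Hoxb7 were most alike, with 140 of 180 bases the same, and Hoxc10 differed most from the others, with 109 to 111 of 180 bases the same as each of them. Over all members, pairs with the same paralogue number had a median of 80.6% of homeobox bases in common (42 pairs), and pairs within a cluster had 61.7% (172 pairs). Of all 31-base words in the Hoxa5, Hoxa10, Hoxb8, Hoxc4 and Hoxc8 transcripts, between 0% and 0.504% occurred in a transcript of another gene, and for Hoxd8 the share was 0.0730%. The members with more than 20% of their exon bases inside another annotated gene were Hoxa3, Hoxa7, Hoxa11, Hoxb2, Hoxb3, Hoxd3 and Hoxd4. For Hoxd3 (62.9%) and Hoxd4 (52.3%) most of the overlap was on the same strand and with each other or a read-through transcript, and for the other 5 it was mainly with antisense transcripts. The library preparation did not mark strand, so reads of such a gene and its partner cannot be told apart, and these members' levels are uncertain to that extent.

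The values are FPKM, fragment counts corrected for transcript length and for the reads mapped in the library. The number of reads behind each value was recovered from its steps and came to within 0.00786 of a whole number for every member, and library depth was 9.16e+06 to 2.14e+07 reads. A count of 3 reads, taken as the floor of detection, was worth an FPKM of 0.0233 to 0.375 for the members, depending on gene length and library. Floors cover counting error only, since reads are not independent molecules. Each pair of libraries showed the defining transcripts of its tissue. The summed FPKM of 4 alveolar type 2 markers was 14129 to 16308 in lung and at most 26.0 elsewhere, that of 4 hepatocyte markers 47086 to 51711 in liver and at most 183 elsewhere, that of 4 enterocyte markers 5197 to 7133 in small intestine and at most 56.6 elsewhere, and that of 4 proximal tubule markers 1932 to 2151 in kidney and at most 9.22 elsewhere. The small intestine libraries also held pancreatic acinar transcripts, with a summed FPKM of 2717 and 1250 over 7 genes.

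Of the 39 Hox genes, 31 had at least 3 reads in both libraries of at least 1 tissue. Kidney had 30 such genes, small intestine 16, lung 13 and liver 8. The kidney libraries were the deepest, at 2.14e+07 and 1.73e+07 reads, against 9.16e+06 to 1.24e+07 in the other 6 libraries. For a given gene, 3 reads thus stood for a lower FPKM in kidney than elsewhere. The part of depth in these counts and in the genes detected in kidney alone was not tested. Without the 5 genes described next as high in liver the counts were 25, 12, 12 and 3. At a minimum of 10 reads small intestine had 3 (Hoxa5, Hoxb4 and Hoxc4), fewer than liver. Liver then kept Hoxa5, Hoxa10, Hoxb4, Hoxb8, Hoxc4 and Hoxc8, so the order of the tissues depends on the floor. Without lung replicate 2 lung had 20, with all 5 genes described next among them. Of the 31 genes, 11 were detected in kidney and in no other tissue, among them the genes of paralogue number 11, the most posterior number seen in any library. Hoxa11 had 19 and 12 reads in the kidney libraries, Hoxc11 10 and 3, and Hoxd11 17 and 11, and all 3 had 0 reads in the other 6 libraries. The genes with numbers 12 and 13, which act in the limb ends, hindgut end and urogenital outlets of the embryo, were Hoxa13, Hoxb13, Hoxc12, Hoxc13, Hoxd12 and Hoxd13, and all 6 had 0 reads in all 8 libraries. Hoxb1 and Hoxd1 had 1 read, each in a single library. The plot of the genes of number 2 to 13 in all 8 libraries shows kidney filled from number 4 to number 10 in each cluster that has the genes, and shows bright cells in lung replicate 1 that are dark in lung replicate 2.

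**Figure D1:**
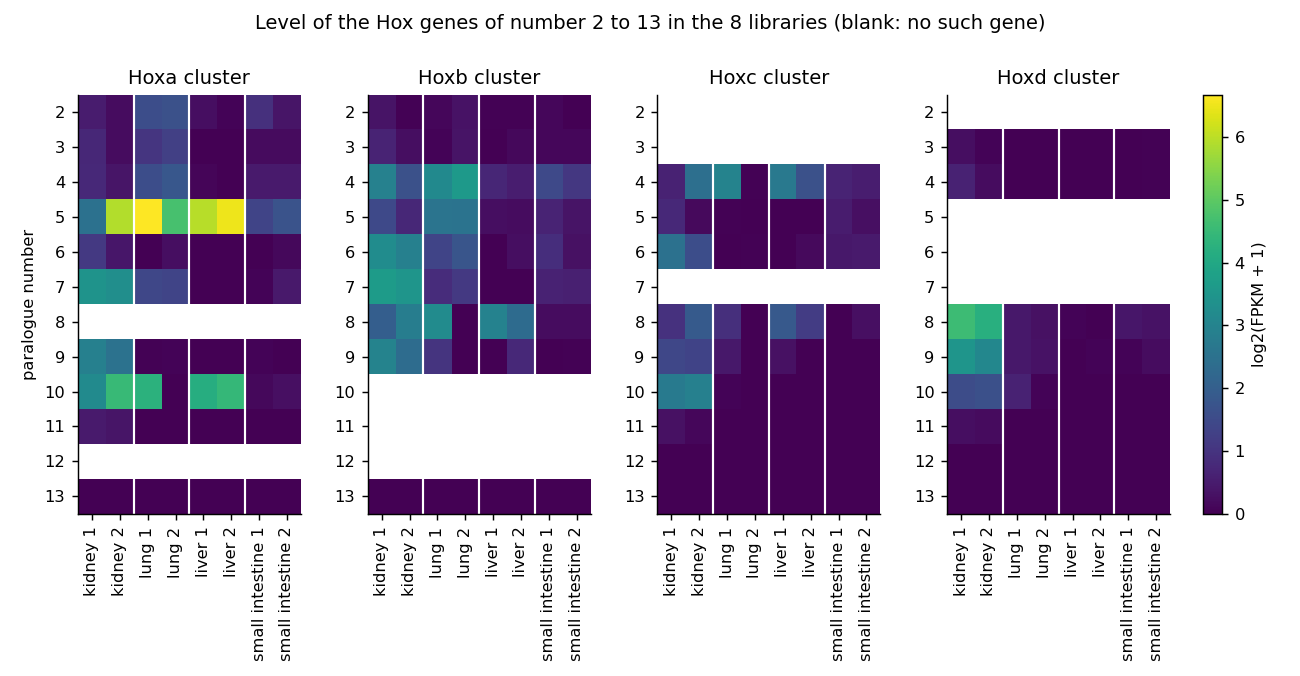
Level of the Hox genes of number 2 to 13 as log2(FPKM + 1) (colour), with paralogue number down each panel, the 8 libraries across and 1 panel per cluster. Blank rows are numbers for which a cluster has no gene, and the number 10 row of Hoxa and the number 5 row of Hoxa are bright in liver while the rows beside them are dark.

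Libraries of the same tissue disagreed for some members, and this is given before any comparison. Hoxa5, Hoxa10, Hoxb8, Hoxc4 and Hoxc8 were the 5 members with an FPKM of 1 or more in both liver libraries, a set picked after their values were seen and therefore described without a test. Hoxa10, which patterns the posterior body and the uterus, had 571 and 1231 reads in kidney, 591 and 0 in lung, 3 and 8 in small intestine and 510 and 696 in liver. As FPKM these were 8.14 and 21.7 in kidney, 18.5 and 0 in lung, 0.0980 and 0.216 in small intestine and 17.0 and 20.6 in liver. Lung replicate 1 thus stood at 98.4% of the liver mean while lung replicate 2 held no read. In lung the ratio of replicate 1 to a floor of 3 reads in replicate 2 was at least 251-fold higher for Hoxa10.

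In the other 4 genes too the libraries of kidney and of lung disagreed. Hoxa5, a gene required for development of the lung, had an FPKM of 4.57 and 59.4 in kidney, 101 and 25.4 in lung, 1.59 and 2.26 in small intestine and 60.9 and 90.6 in liver. Hoxb8, a gene of the posterior hindbrain and trunk, had 2.97 and 6.12 in kidney, 8.24 and 0 in lung, 0.162 and 0.168 in small intestine and 6.79 and 4.04 in liver. Hoxc4 had an FPKM of 0.545 and 4.41 in kidney, 6.86 and 0.0313 in lung, 0.582 and 0.447 in small intestine and 5.44 and 2.15 in liver. Hoxc8 was lower, at 0.939 and 2.69 in kidney, 0.868 and 0 in lung, 0 and 0.218 in small intestine and 2.66 and 1.27 in liver. For all 5 genes kidney replicate 2 exceeded kidney replicate 1, by 2.06-fold for Hoxb8, 8.09-fold for Hoxc4 and most for Hoxa5, and lung replicate 1 exceeded lung replicate 2. A difference of over 1 on the log2(FPKM + 1) scale in both pairs was seen for 3 of the 21 members tested (Hoxa5, Hoxa10 and Hoxc4), against 87 of 16328 genes, or 0.533%, of all genes tested.

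In liver the genes next to Hoxa5 and Hoxa10 on the chromosome did not share their levels. There Hoxa4 had 1 and 0 reads and Hoxa6 had 0 and 0, while Hoxa5 between them had 1047 and 1756. Hoxa9 and Hoxa11, on either side of Hoxa10, had 0 reads in both liver libraries. In kidney replicate 1 levels of some neighbours were closer, with an FPKM of 8.14 for Hoxa10 beside 6.55 for Hoxa9, 0.939 for Hoxc8 beside 1.69 for Hoxc9 and 0.545 for Hoxc4 beside 0.710 for Hoxc5. Others there were further apart. Hoxa11 had 0.387 beside Hoxa10, Hoxc6 had 4.63 beside Hoxc8, and Hoxa5 had 4.57 between Hoxa4 at 0.702 and Hoxa6 at 1.17. Hoxb8 had 2.97 between Hoxb7 at 11.6 and Hoxb9 at 6.88. In lung Hoxb9, next to Hoxb8, had 25 and 0 reads, and Hoxc9, next to Hoxc8, had 8 and 0. The genes whose values over the 8 libraries followed those of Hoxa10 most closely, by Pearson's r of log2(FPKM + 1) among 16328 genes, were Pou3f3 (0.995), Hoxb8 (0.978), Rad54l2 (0.968), Gm3076 (0.962) and Foxc1 (0.947). Pou3f3, a transcription factor of brain and kidney, had an FPKM of 5.32 and 8.45 in kidney, 9.40 and 0.0434 in lung, 0 and 0.0119 in small intestine and 9.26 and 8.64 in liver. The pattern was thus not restricted to Hox genes. The summed level of the hepatocyte markers also ran from 106 to 183 FPKM between kidney replicates 1 and 2 and from 110 to 65.8 between lung replicates 1 and 2. In lung replicate 1 it was 0.224% of the liver mean, and the 5 Hox genes were at 44.2% to 181% of theirs. Between lung replicates 1 and 2 the summed level of 5 skeletal muscle and body wall markers ran from 40.1 to 6.39, that of the enterocyte markers from 14.2 to 2.99, and that of the proximal tubule markers from 9.22 to 3.32, and in the kidney libraries the first of these was 0 in both. The part of the hepatocyte markers and of these other markers in the split was not tested. What sets these 5 genes apart was not tested. They are called the 5 liver-high genes below, only because their liver values picked them. Their highest single library was lung replicate 1 (Hoxa5, Hoxb8 and Hoxc4) or kidney replicate 2 (Hoxa10 and Hoxc8).

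**Figure D2:**
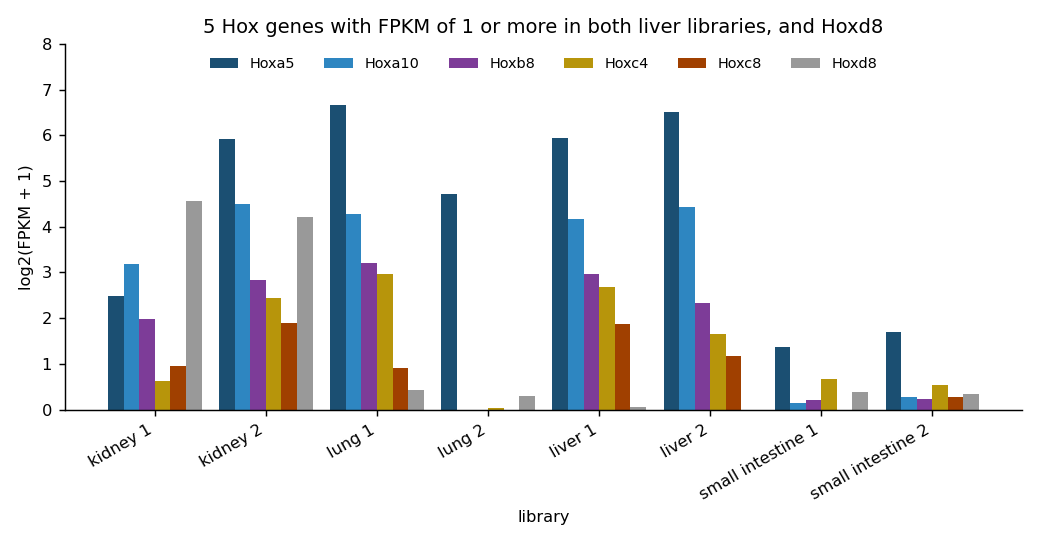
Level of the 5 liver-high genes and, for contrast, Hoxd8, as log2(FPKM + 1) in each of the 8 libraries. All 5 genes are well above 0 in kidney 2 and both liver libraries, and all but Hoxc8 are tall in lung 1. Hoxa5, Hoxa10 and Hoxb8 are also well above 0 in kidney 1, only Hoxa5 is so in lung 2, and Hoxd8 is tall in the 2 kidney libraries.

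Outside the 5 liver-high genes, kidney had the highest levels of the Hox genes of number 6 to 11. Hoxd8, the highest member outside the 5 liver-high genes, had an FPKM of 22.8 and 17.5 in kidney, 0.336 and 0.235 in lung, 0.311 and 0.257 in small intestine and 0.0398 and 0 in liver. Its neighbour Hoxd9, which patterns the lower trunk and hindlimb, had 10.2 and 7.57 in kidney and at most 0.336 in any other library. Hoxd10 was next along the cluster, at 1.93 and 2.07 in kidney, 0.564 and 0.0443 in lung, and 0 in both libraries of liver and of small intestine. The Hoxd levels in kidney were thus lower at each step from number 8 to number 11, where Hoxd11 had 0.188 and 0.151. In no member of this cluster did a kidney library overlap the other tissues from number 8 to 11.

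In the Hoxb cluster, Hoxb7, a gene long used to mark the ureteric bud and collecting duct, had an FPKM of 11.6 and 10.1 in kidney, 0.796 and 1.15 in lung, 0.554 and 0.515 in small intestine and 0 in both liver libraries. Hoxb6 had 8.55 and 6.47 in kidney, 1.56 and 2.38 in lung, 0.816 and 0.225 in small intestine and 0 and 0.197 in liver. Hoxb9, the last detected gene of the cluster, had 6.88 and 4.11 in kidney, 0.995 and 0 in lung, 0 and 0.0343 in small intestine and 0 and 0.715 in liver. Kidney was above every other library for all 3 genes, and Hoxb9 again differed between the libraries of lung and of liver. Collecting duct markers were themselves high in kidney, with a summed FPKM over 5 genes of 265 and 252, and in a whole organ fewer cells of a type and less RNA per cell cannot be told apart.

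In the Hoxa cluster, Hoxa7 had an FPKM of 9.84 and 8.92 in kidney, 1.67 and 1.57 in lung, 0.0371 and 0.368 in small intestine and 0 in both liver libraries. Hoxa9, a regulator of trunk and of blood progenitors, had 6.55 and 4.68 in kidney and at most 0.0433 elsewhere. Hoxc10 led the Hoxc cluster in kidney, with 5.64 and 6.57, and had 1 read outside kidney, in lung replicate 1. Hoxc6 had 4.63 and 1.99 in kidney and at most 0.403 elsewhere, and Hoxc9 had 1.69 and 1.55 in kidney and at most 0.337 elsewhere. These genes of number 6 to 10 from all 4 clusters stood in kidney above all other libraries.

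The difference between kidney and the mean of the other 3 tissues was tested with limma on log2(FPKM + 1) across the 16328 genes that reached an FPKM of 1 in 2 or more libraries, with Benjamini-Hochberg adjustment over all of them. Genes were called where the adjusted p was below 0.05 and the fitted difference exceeded 1 in size. Of the 39 members 21 passed this filter, 8 of them through kidney alone and 3 through lung alone, so that a difference was built into their passing, and the counts of called members are descriptions. In kidney 11 of the 21 were called higher, where 8.65% of all genes tested were called higher. They were Hoxa7, Hoxa9, Hoxb6, Hoxb7, Hoxb9, Hoxc6, Hoxc9, Hoxc10, Hoxd8, Hoxd9 and Hoxd10, and none was a liver-high gene. The largest differences were 4.14 ± 0.142 (SE) for Hoxd8 (limma, adjusted p = 9.11e-07), 3.10 ± 0.133 for Hoxd9 (limma, adjusted p = 2.41e-06) and 3.04 ± 0.133 for Hoxb7 (limma, adjusted p = 2.63e-06), all on the log2(FPKM + 1) scale, which understates the change of low genes. Hoxd8 and Hoxd9 are among the 8 that passed through kidney alone. By limma no member was called lower in kidney, where 16.1% of all genes were. Under an unadjusted p of 0.05, 1 member was lower, and limma-voom on the recovered reads also called none lower, where it called 25.7% of all genes.

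With libraries scaled by the median of ratios in place of total reads, the same 11 genes were called higher in kidney, where 11.5% of all genes then were. This scaling matters elsewhere, because over all genes the median difference was 0.82 for lung against the other tissues, -0.72 for liver, -0.34 for kidney and -0.01 for small intestine under the deposited scaling, and -0.02, -0.14, -0.11 and -0.05 under the median of ratios. Of all called genes in the lung comparison 83.1% were higher under the first and 47.7% under the second. The shares were 16.7% and 46.8% for liver, 35.0% and 48.8% for kidney, 17.6% and 49.4% for kidney against lung, 36.3% and 47.5% for kidney against small intestine, and 24.8% and 51.3% for small intestine against lung. For single members an exact permutation test over the 28 choices of 2 libraries among 8 was added, whose smallest two-sided p is 0.0357. Both kidney libraries lay above the other 6 for 11 of the 21 members that passed the filter, each at this smallest p, against 8.6% of all genes that passed it. Of the 11, 8 passed the filter through kidney alone, which fixed their order, so their p adds nothing. The same held for 6 of the 12 members that did not pass but were above 0 in some library, against 4.77% of all such genes. They were Hoxa6, Hoxa11, Hoxc11, Hoxd3, Hoxd4 and Hoxd11, whose levels were too low for limma. Hoxa11, Hoxc11 and Hoxd11 were above 0 in kidney alone and so entered this count only through kidney.

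Lung had the highest levels of Hoxa2, Hoxa3, Hoxa4, Hoxb4 and Hoxb5, anterior genes of the Hoxa and Hoxb clusters. Hoxb4, a gene of the hindbrain boundary and of blood stem cells, had an FPKM of 7.98 and 10.9 in lung, 6.60 and 2.16 in kidney, 1.79 and 1.10 in small intestine and 0.638 and 0.453 in liver. Hoxb5, which is active in lung mesenchyme and gut neural crest of the embryo, had 4.96 and 4.82 in lung, 1.77 and 0.684 in kidney, 0.575 and 0.285 in small intestine and 0.196 and 0.174 in liver. For both genes the deposited lung values were above all others and the liver values below all others. Divided by the median-of-ratios factors, Hoxb4 was 4.40 and 5.75 in lung against 6.403 and 3.01 in kidney, so that these overlapped (exact permutation test, lung against the rest, p = 0.179), while Hoxb5 stayed highest in lung (2.73 and 2.54) and its liver values (0.355 and 0.277) overlapped those of small intestine (0.521 and 0.272).

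Hoxa4, Hoxa2 and Hoxa3 were lower in level, and the deposited lung values were again above those of the other tissues. Hoxa4 had an FPKM of 1.99 and 2.52 in lung, 0.702 and 0.290 in kidney, 0.402 and 0.388 in small intestine and 0.0685 and 0 in liver. Hoxa2, which sets the identity of the second pharyngeal arch, had 1.96 and 2.13 in lung and at most 0.903, in small intestine replicate 1, elsewhere. Hoxa3, a gene of the thymus and parathyroid, had 1.06 and 1.42 in lung and at most 0.667 elsewhere, and after the same division lung (0.581 and 0.747) overlapped kidney (0.647 and 0.241). Of the Hoxc and Hoxd genes with these numbers, Hoxc5 had 1 and 0 reads in lung, Hoxd3 and Hoxd4 had 0 in both libraries, and Hoxc4, a liver-high gene, had 172 and 1. No gene of the Hoxc cluster reached 3 reads in both lung libraries.

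In lung 4 of 21 members were called higher (Hoxa2, Hoxa4, Hoxb4 and Hoxb5), where 40.7% of all genes tested were called higher, and 1 was called lower (Hoxd8), where 8.26% of all genes were. The share of members called higher was thus below that of all genes. The largest differences were 1.97 ± 0.323 (SE) for Hoxb4 (limma, adjusted p = 0.000821), 1.94 ± 0.196 for Hoxb5 (limma, adjusted p = 6.26e-05) and 1.33 ± 0.132 for Hoxa4 (limma, adjusted p = 5.43e-05). Under the median of ratios Hoxb4 (1.06, adjusted p = 0.00769 by limma) and Hoxb5 (1.17, adjusted p = 0.000310 by limma) were still called, and the differences of Hoxa4 (0.76) and Hoxa2 (0.65) were no longer over 1. With that scaling 2 members were called higher, where 14.6% of all genes were, and 2 lower (Hoxd8 and Hoxd9), where 16% were. With limma-voom 7 were called higher, where 55.8% of all genes were, and 2 lower, where 9.04% were, and Hoxd8 was not among them. Without lung replicate 1, 9 members were called, 5 higher and 4 lower, of which Hoxa10 and Hoxb8 are liver-high genes with 0 reads in the remaining lung library, and without the liver-high genes 2 were lower. Both lung libraries were above the other 6 for 5 of the 21 members that passed the filter (Hoxa2, Hoxa3, Hoxa4, Hoxb4 and Hoxb5), against 51.4% of all genes that passed it, and for 3 under the median of ratios. Hoxa2, Hoxa3 and Hoxa4 passed the filter through lung alone, which fixed this order and the sign of their differences under the deposited scaling. Fibroblast markers ran in the same direction, with a summed FPKM over 6 genes of 238 and 208 in lung against 8.39 to 41.8 in the other libraries, as did endothelial markers, with 335 and 410 over 5 genes against 7.21 to 22.7, and their part in the levels of the Hox genes was not tested.

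**Figure D3:**
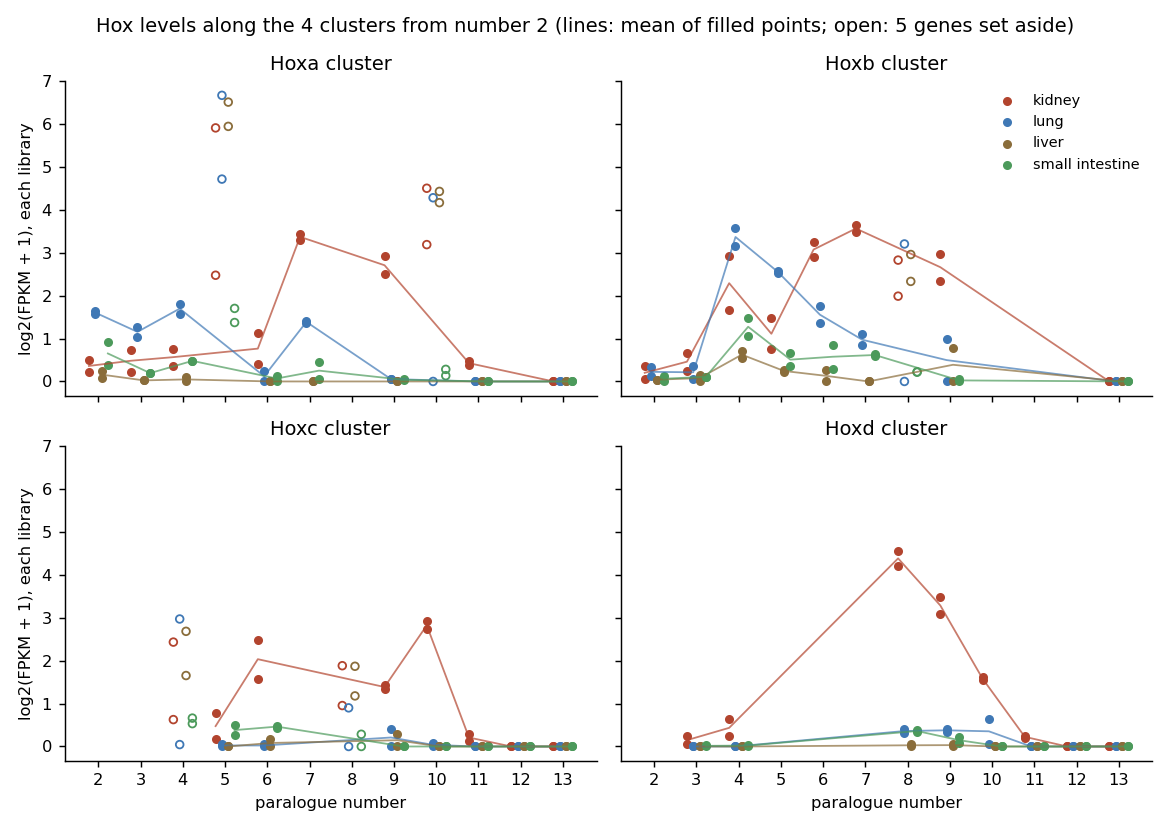
Level of each Hox gene of number 2 to 13 as log2(FPKM + 1) against paralogue number, 1 panel per cluster, with 1 point per library coloured by tissue, lines through the tissue means of the filled points, and open points for the 5 liver-high genes. Kidney peaks at numbers 7 to 10 in all 4 clusters, lung peaks at number 4 in Hoxa (apart from the open points) and Hoxb, and liver stays near 0 apart from the open points.

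Liver, apart from the 5 liver-high genes, was close to empty of Hox transcripts. Of the other 34 members none exceeded an FPKM of 0.715 in a liver library, and 3 were detected, among them Hoxb4 (15 and 12 reads) and Hoxb5 (5 and 5 reads). The 5 genes set aside were picked by their liver levels, so the low values of the others follow in part from that choice. No Hoxd gene had more than 1 read in liver. In the limma test 7 of 21 members were called lower in liver (Hoxa7, Hoxb4, Hoxb5, Hoxb6, Hoxb7, Hoxd8 and Hoxd9), where 32.7% of all genes tested were called lower, and 1 was called higher, where 6.56% were. With the median of ratios 7 members were called lower, where 13.9% of all genes were, and 4 higher (Hoxa5, Hoxa10, Hoxb8 and Hoxc8), where 12.3% were, and limma-voom called 3 higher (Hoxa5, Hoxa10 and Hoxc8), where it called 8.04% of all genes higher. All of these genes called higher are liver-high genes. Limma-voom called 14 members lower, as did limma at a pseudocount of 0.1. The median difference by limma-voom was -2.74 for the members tested and -1.11 for all genes. Under the deposited scaling the gene called higher was Hoxa5, with a difference of 2.42 ± 0.853 (SE) and an adjusted p of 0.0315 by limma. It was no longer called when lung replicate 2 or any library of liver or small intestine was left out. Its 2 lung libraries and its 2 kidney libraries disagreed as given above. The largest differences among the genes called lower were -1.72 ± 0.133 (SE) for Hoxb7 (limma, adjusted p = 2.64e-05), -1.69 ± 0.323 for Hoxb4 (limma, adjusted p = 0.00207) and -1.68 ± 0.142 for Hoxd8 (limma, adjusted p = 4.01e-05).

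Small intestine had low levels of many Hox genes. It had 16 detected members, none of which was undetected in kidney, and apart from the 5 liver-high genes the highest was Hoxb4, at an FPKM of 1.79 and 1.10. Hoxc4, Hoxc5 and Hoxc6 were all detected here, with 8 to 14 reads in replicate 1 and 7 to 13 in replicate 2, whereas lung had at most 1 read of Hoxc5 and Hoxc6. Beyond number 8 only Hoxa10, a liver-high gene, was detected, with 3 and 8 reads. In the limma test 8 of 21 members were called lower (Hoxa5, Hoxa7, Hoxa10, Hoxb6, Hoxb8, Hoxb9, Hoxd8 and Hoxd9), where 11.3% of all genes tested were called lower. Of the 8, 3 were liver-high genes. Their differences included the largest, -3.84 ± 0.853 (SE) for Hoxa5 (limma, adjusted p = 0.00674), -3.22 ± 0.957 for Hoxa10 (limma, adjusted p = 0.0236) and -2.0 ± 0.725 for Hoxb8 (limma, adjusted p = 0.0495). Without them 5 members were called lower. When small intestine replicate 1 was left out 4 were called lower, and when replicate 2 was left out 3 were, with Hoxa5, Hoxa10 and Hoxb8 among those lost in both cases. With the median of ratios 9 were called lower, 5 without the liver-high genes, where 11.6% of all genes were. With limma-voom 5 were called lower (Hoxa7, Hoxa9, Hoxc10, Hoxd9 and Hoxd10), where 15.2% of all genes were, so that of the 8 genes only Hoxa7 and Hoxd9 were called by both. The calls of Hoxa10 and Hoxb8 were also lost without either liver library, without kidney replicate 2 and with no filter on low values. That of Hoxb8 was lost too without kidney replicate 1, without the trend and with the filter at an FPKM of 0.5. No member was called higher by limma, where 13.7% of all genes were, at an unadjusted p of 0.05, or by limma-voom, where 19.8% were.

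Between kidney and lung the genes called higher in kidney had higher paralogue numbers than those called lower. Of 21 members tested, 11 were called higher in kidney than in lung, where 8.87% of all genes were, and 4 were called lower, where 41.4% were. The 11 genes had numbers 6 to 10 (Hoxa7, Hoxa9, Hoxb6, Hoxb7, Hoxb9, Hoxc6, Hoxc9, Hoxc10, Hoxd8, Hoxd9 and Hoxd10), and the 4 had numbers 2 to 5 (Hoxa2, Hoxa4, Hoxb4 and Hoxb5). The largest difference was 4.03 ± 0.174 (SE) for Hoxd8 (limma, adjusted p = 1.45e-06), followed by 2.91 ± 0.163 for Hoxd9 (limma, adjusted p = 4.05e-06) and 2.79 ± 0.118 for Hoxc10 (limma, adjusted p = 1.35e-06). Hoxd8, Hoxd9 and Hoxc10 passed the filter through kidney alone, which fixed the sign of their differences. At the other end Hoxb5 was lower in kidney, with a difference of -1.45 ± 0.240 (limma, adjusted p = 0.00108). Hoxb4, at -1.08 ± 0.395 (limma, adjusted p = 0.0391), lost its call when any library other than kidney replicate 1 was left out. Hoxa4 lost its call without kidney replicate 2, and Hoxc9 and Hoxd10 lost theirs without lung replicate 2. Under the median of ratios the 11 genes and Hoxc8 were called higher, where 16.8% of all genes were, and none of the 4 was called lower, where 17.3% of all genes were, with differences of -0.66 for Hoxb5, -0.68 for Hoxa2, -0.52 for Hoxa4 and -0.15 for Hoxb4. Hoxa2, Hoxa3, Hoxa4, Hoxb4 and Hoxb5, the tested members with numbers 1 to 5 outside the liver-high genes, had negative differences under both scalings. The median difference was -1.13 for these 5 and 2.17 for the 11 tested members of number 6 and above that are not liver-high genes, beside a median of -0.81 for all genes.

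Against paralogue number, the difference between kidney and lung had a Pearson's r of 0.759 and a Spearman's rho of 0.684 over the 21 members tested. Without the 5 liver-high genes the values were 0.787 and 0.681 over 16 members. Of the 16, 8 passed the filter through kidney alone and 3 through lung alone, which fixed the sign of their difference, so these values rest in part on the filter. They are descriptions across genes, which share the same 4 libraries and a cluster and are no replicates, and under the median of ratios Pearson's r was 0.760 over the 16. The comparison of kidney with small intestine, which shares the kidney libraries, gave an r of 0.733 over the 16. In it 13 members were called higher in kidney, where 10.7% of all genes were, the same 11 genes and the liver-high genes Hoxa10 and Hoxc8. The differences of Hoxd8 (4.03 ± 0.174), Hoxa10 (3.64 ± 1.17) and Hoxd9 (3.14 ± 0.163) were the largest on the log2(FPKM + 1) scale. The call of Hoxa10 was lost without either library of kidney, liver or small intestine and with limma-voom, and that of Hoxc8 without kidney replicate 2 or either small intestine library and with limma-voom. By limma no member was called lower in kidney than in small intestine, where 18.8% of all genes were, at an unadjusted p of 0.05 none was lower, and limma-voom called none lower, where it called 26.4% of all genes.

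**Figure D4:**
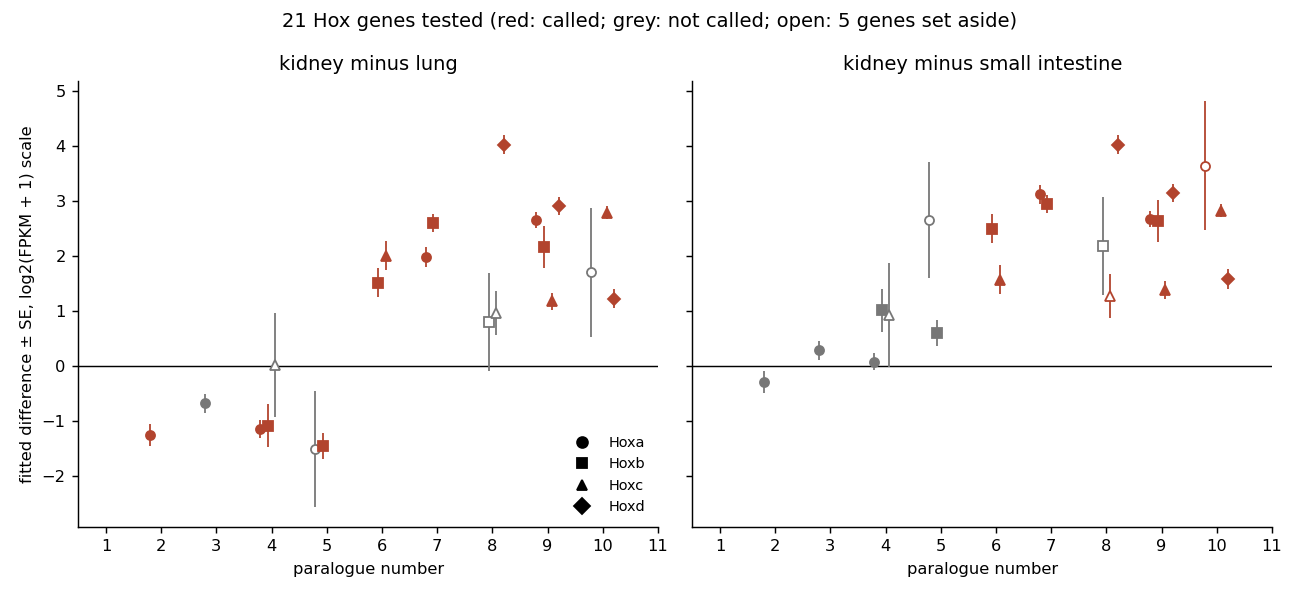
Fitted difference ± SE on the log2(FPKM + 1) scale for the 21 members tested, kidney minus lung (left) and kidney minus small intestine (right), against paralogue number, with symbols by cluster. Called genes are red, genes not called are grey and the 5 liver-high genes are open, and the called kidney minus lung differences are below 0 up to number 5 and above 0 from number 6.

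Between small intestine and lung the share of members called by limma on log2(FPKM + 1) was below that of all genes. Of 21 members 5 were called lower in small intestine than in lung (Hoxa4, Hoxa5, Hoxa7, Hoxb4 and Hoxb5), where 30.6% of all genes tested were called lower. The differences were -4.16 ± 1.05 (SE) for Hoxa5 (limma, adjusted p = 0.00974), -2.10 ± 0.395 for Hoxb4 (limma, adjusted p = 0.00244) and -2.05 ± 0.240 for Hoxb5 (limma, adjusted p = 0.000191). The call of Hoxa5 was lost without lung replicate 1 or either small intestine library, and that of Hoxa7 without small intestine replicate 1. Under the median of ratios 3 of them, Hoxa5, Hoxb4 and Hoxb5, were called, where 15% of all genes were. Without the liver-high genes 4 members were called lower. No member was called higher by limma, where 10.1% of all genes were, or at an unadjusted p of 0.05, and limma-voom called 1 higher, where it called 11.6% of all genes. It was Hoxc6, which had 8 and 11 reads in small intestine against 0 and 1 in lung. By limma-voom 9 members were lower, and limma at a pseudocount of 0.1 called 8 lower and 1 higher. The median difference by limma-voom was -1.85 for the members tested and -0.785 for all genes.

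The share of each cluster in the summed Hox FPKM differed between tissues. Over all 39 genes the sum was 122 and 171 in kidney, 161 and 54.6 in lung, 9.13 and 8.06 in small intestine and 94.4 and 121 in liver, so that lung overlapped both kidney and liver. Under the median of ratios the sum was 119 and 238 in kidney, 88.8 and 28.7 in lung, 8.27 and 7.70 in small intestine and 171 and 192 in liver, and lung was then below kidney and liver. Without the 5 liver-high genes it was 105 and 76.7 in kidney, 25.5 and 29.2 in lung, 6.70 and 4.76 in small intestine and 1.59 and 2.05 in liver. The tissues then did not overlap, in the order kidney, lung, small intestine and liver. The 5 genes were picked by their liver levels, so the low place of liver rests on that choice. The 5 genes thus made up most of the Hox level in both liver libraries, in lung replicate 1 and in kidney replicate 2.

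Over all 39 genes, Hoxd took 22.7% ± 9.33 (SD, n = 2) of the sum in kidney, 0.880% ± 0.161 in lung, 4.92% ± 1.36 in small intestine and 0.0398% ± 0.00324 in liver. Hoxa took 41.5% ± 20.8 in kidney, 70.7% ± 11.5 in lung, 42.6% ± 8.31 in small intestine and 87.7% ± 6.55 in liver. Hoxb took 24.8% ± 10.4 in kidney, 25.8% ± 14.9 in lung and 37.2% ± 10.3 in small intestine, and Hoxc took 10.98% ± 1.12, 2.59% ± 3.49 and 15.3% ± 0.657. The kidney libraries differed more in these shares than without the liver-high genes. Of the sum without these genes, Hoxd took 35.0% ± 1.28 (SD, n = 2) in kidney, 3.35% ± 2.11 in lung and 7.68% ± 3.23 in small intestine. Hoxc took 12.9% ± 0.834 in kidney, 0.889% ± 1.09 in lung and 12.1% ± 0.843 in small intestine. Hoxb took 66.2% ± 2.49 in lung, against 32.8% ± 2.5 in kidney and 52.7% ± 7.84 in small intestine. Without these genes lung thus held mainly Hoxb and Hoxa transcripts and kidney held all 4 clusters. In liver the shares rested on sums of 1.59 and 2.05 and are not read.

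**Figure D5:**
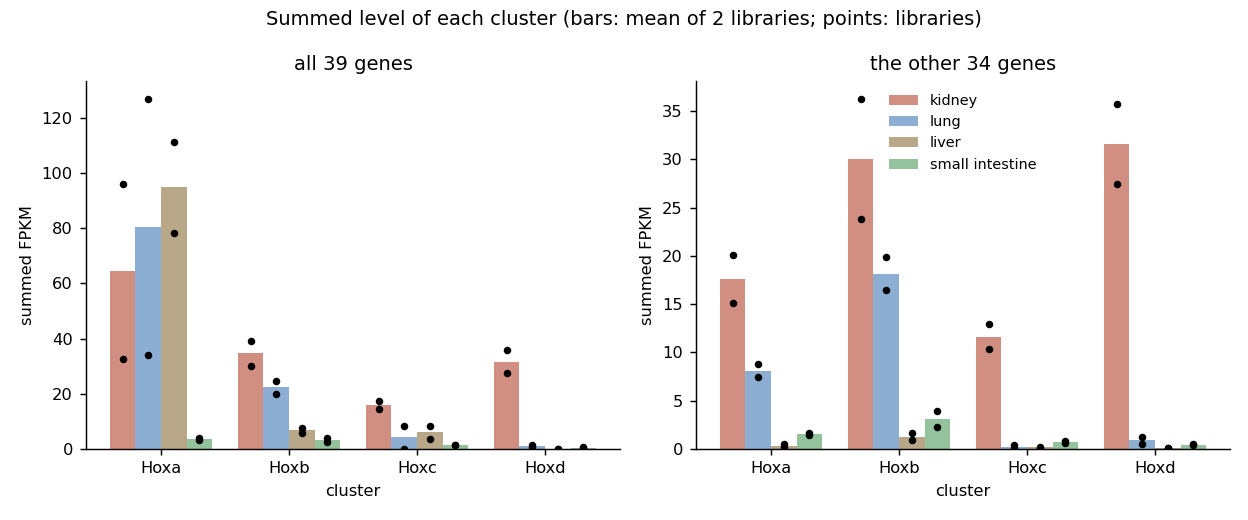
Summed FPKM of each Hox cluster by tissue, for all 39 genes (left) and for the 34 genes other than the 5 liver-high genes (right, with its own scale), with bars for the mean of 2 libraries and points for the libraries. On the left the points of Hoxa in kidney and lung lie far apart, and on the right Hoxd is high in kidney only and the lung pairs lie close.

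By paralogue class, genes of number 9 to 13 summed to an FPKM of 41.8 and 48.8 in kidney, 20.8 and 0.351 in lung, 0.186 and 0.432 in small intestine and 17.2 and 21.4 in liver. Without the liver-high genes, of which Hoxa10 is the one in this class, the sums were 33.7 and 27.1 in kidney, 2.32 and 0.351 in lung, 0.0883 and 0.216 in small intestine and 0.225 and 0.760 in liver. Genes of number 1 to 3, none of them liver-high, summed to 3.84 and 5.02 in lung, 2.45 and 0.837 in kidney, 1.35 and 0.667 in small intestine and 0.428 and 0.341 in liver. The mean paralogue number weighted by FPKM, a single value for how posterior the Hox transcripts of a library are, was 7.26 ± 0.359 (SD, n = 2) in kidney, 5.18 ± 0.707 in lung, 5.04 ± 0.388 in small intestine and 6.06 ± 0.105 in liver. Without the 5 liver-high genes it was 7.60 ± 0.240 in kidney, 4.63 ± 0.324 in lung, 4.89 ± 0.379 in small intestine and 5.10 ± 1.16 in liver. Kidney was above the other 6 libraries in both versions, and lung and small intestine overlapped in both. Without Hoxa5, by its mean the highest member in every tissue, the order turned, with 8.19 and 8.94 in liver against 7.61 and 8.07 in kidney.

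Hox proteins bind DNA together with cofactors of the TALE class of homeodomain proteins, the Pbx, Meis and Pknox (Prep) families. All 9 listed genes were tested, and 7 were called higher in lung, 4 lower in liver and 1 lower in kidney, beside 40.7%, 32.7% and 16.1% of all genes. With the median of ratios 3 were called higher in lung (Pknox2, Meis1 and Meis3), beside 14.6% of all genes, and none was called in kidney or liver (12.1% and 13.9% of all genes lower). The highest gene in every tissue was Pbx2, at an FPKM of 5.47 and 3.87 in kidney, 15.9 and 21.4 in lung, 7.45 and 5.99 in small intestine and 2.94 and 3.38 in liver. Meis3 had the largest difference, 1.90 ± 0.147 (SE, limma, adjusted p = 1.48e-05), with an FPKM of 4.81 and 4.06 in lung and at most 1.55 elsewhere, and Meis1 had 4.26 and 4.94 in lung and at most 0.874 elsewhere. The median difference of the 9 genes in the lung comparison was 1.79, beside 0.82 for all genes. Scaled by the median of ratios it was 0.82, beside -0.02.

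The list of positional regulators holds the Cdx factors, which drive posterior Hox genes in the embryo and keep intestinal identity in the adult, and the enzymes and receptors of retinoic acid, a signal that turns on anterior Hox genes. Of 12 listed genes 9 were tested. Cdx1 had an FPKM of 55.6 and 62.2 in small intestine and at most 0.176 elsewhere, a difference of 5.82 ± 0.134 (SE, limma, adjusted p = 1.88e-07), and Cdx2 had 23.9 and 27.5 there and at most 0.0256 elsewhere. Aldh1a1, which makes retinoic acid, was the highest of the list in every tissue but kidney, where the receptor gene Rara led with 3.20 and 1.61. Aldh1a1 had 1.46 and 1.35 in kidney against 120 to 257 elsewhere (kidney difference -6.27 ± 0.109, limma, adjusted p = 5.60e-07). Cyp26a1, which breaks retinoic acid down, had 11.5 and 11.9 in liver and at most 0.395 elsewhere, a difference of 3.47 ± 0.140 (SE, limma, adjusted p = 9.40e-07). The receptor gene Rarg had 13.7 and 16.8 in lung and at most 2.29 elsewhere, and its lung difference was 3.06 ± 0.223 (SE, limma, adjusted p = 1.12e-05). In all, 4 of the 9 were called higher and 3 lower in lung, 5 higher and 2 lower in small intestine, 2 higher and 6 lower in liver, and 5 lower in kidney. Of all genes 40.7% were called higher and 8.26% lower in lung, 13.7% and 11.3% in small intestine, 6.56% and 32.7% in liver, and 16.1% lower in kidney. Under the median of ratios the counts for the list were 3 and 3 in lung, 5 and 2 in small intestine, 2 and 4 in liver, and 4 lower in kidney. Of all genes 14.6% and 16% were then called in lung, 13% and 11.6% in small intestine, 12.3% and 13.9% in liver, and 12.1% lower in kidney.

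Polycomb and trithorax proteins keep Hox genes off or on. All 15 listed genes were tested and all were above 0 in all 8 libraries, and 9 were called higher in lung, 3 lower in liver and 1 lower in kidney, beside 40.7%, 32.7% and 16.1% of all genes. Scaled by the median of ratios 1 was called higher in lung, beside 14.6% of all genes. None was called in kidney, beside 11.5% of all genes higher and 12.1% lower. In liver 1 was called in each direction, beside 12.3% higher and 13.9% lower. The gene in lung was Cbx7, a Polycomb subunit, which had an FPKM of 11.4 and 14.7 in lung against 0.732 to 4.07 elsewhere. Ring1, another Polycomb subunit, had 14.1 and 13.6 in lung and 4.51 to 7.39 elsewhere. Of 13 listed genes beside the clusters 8 were tested, and 1 was called higher in kidney, beside 8.65% of all genes. In lung 4 were called higher (Calcoco1, Snx10, Skap2 and Ttll6), beside 40.7%, and 1 lower, beside 8.26%, and in small intestine 2 were lower, beside 11.3%. Under the median of ratios 2 were higher in lung (Calcoco1 and Ttll6), beside 14.6%, and 2 lower (Mtx2 and Hibadh), beside 16%. The gene higher in kidney was Hibadh, an enzyme of valine breakdown, with 48.1 and 44.9 in kidney. Hibadh was also called higher in liver (28.6 and 26.5), and the homeobox genes Evx1 and Evx2 were listed at 0 in all 8 libraries. Of 12 listed antisense and intergenic transcripts of the clusters 3 were tested, and Halr1 (2.33 and 2.30 in kidney, at most 0.209 elsewhere) and Hoxb5os (5.90 and 8.05 in kidney, at most 1.16 elsewhere) were called higher in kidney. Hotairm1, a long noncoding RNA, was called higher in lung, with 2.0 and 3.06 there and at most 0.789 elsewhere, but not under the median of ratios.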

How the data were processed

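Polyadenylated RNA of 4 mouse tissues with 2 libraries each was sequenced. By the study's methods the authors selected reads by index with bbduk, mapped them with STAR 2.5.3a to the Ensembl mouse genome and deposited FPKM values made with the fpkm function of DESeq2. How reads were counted on genes is not given in the sources used here. Groups were taken from the sample labels, and 51847 of 52195 symbols matched 1 gene of GENCODE M21 (GRCm38), which gave coordinates and exon lengths. FPKM corrects for gene length and total reads, but a few abundant transcripts lower all other values of a library.

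Values were tested as log2(FPKM + 1) with limma 3.58.1 in R 4.3.3 (all 8 libraries in 1 fit, trend) over the 16328 genes that reached an FPKM of 1 in 2 or more libraries, and the p-values measure only the spread between these libraries. Reads were recovered from the FPKM steps and depth. Homeobox sequences were read from GENCODE transcripts, located by the tryptophan codon at position 48 of 60. Figures used matplotlib 3.10.9 and other values Python 3.11.15. Per-library values are given for up to the 3 highest members of each cluster in each tissue with a mean FPKM of at least 1 there, fitted differences for up to 3 called members per comparison, and, of other lists, the highest gene and the called gene with the largest difference, with a few further genes named after their values were seen. The members, lists and tests were chosen with earlier results of these data known. Alternatives changed the pseudocount, filter, scaling, trend, replicate block, test and libraries. The alternatives without the 5 liver-high genes and with 4 libraries were chosen after seeing the data. Protein sequences were not used here, and the values of 1 member are not reported here.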

Additional observations from a re-analysis of the deposited data

How the results depend on the processing

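The count of called members kept within 1.5 times its value under all alternatives for kidney against the other tissues, kidney against lung and kidney against small intestine. For kidney against lung the directions moved, from 11 higher and 4 lower to 12 and 0 under the median of ratios. Scaling to equal sums without mitochondrial genes also gave 12 and 0. The counts of this section stand without the share of all genes called in the same setting, so they are not read as results about the members. For lung against the other tissues the count of called members was 5, and 10 at a pseudocount of 0.1 and 9 with limma-voom on recovered reads. For liver it was 8, and 15 and 17 under the same alternatives, for small intestine 8, and 5 with limma-voom, of which 2 were among the 8, and for small intestine against lung 5, and 9 and 10 under the same alternatives and 3 under the median of ratios. Leaving out each library in turn gave 11 to 13 called members for kidney, 5 to 9 for lung (9 without lung replicate 1), 7 to 11 for liver, 3 to 8 for small intestine, 12 to 17 for kidney against lung, 11 to 14 for kidney against small intestine and 4 to 7 for small intestine against lung. It gave 30 to 31 detected members in kidney, 15 to 20 in lung, 10 to 12 in liver and 17 to 19 in small intestine, where a tissue with 1 library left needs 3 reads in that library. The summed FPKM ran from 122 to 171 in kidney, 54.6 to 161 in lung, 94.4 to 121 in liver and 8.06 to 9.13 in small intestine. With 1 library left the spread was taken from the other tissues.

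At 10 reads 3 members were detected in small intestine, fewer than in liver. Without the 5 liver-high genes 3 were detected in liver, 5 were called in small intestine, the sum was 90.8 in kidney, 27.3 in lung, 5.73 in small intestine and 1.82 in liver, and the weighted paralogue number of liver was 5.10. Without the member of each cluster with the highest value in any library (Hoxa5, Hoxb7, Hoxc4 and Hoxd8) the summed FPKM of kidney was 81.2, of lung 39.9, of small intestine 5.34 and of liver 28. The median of ratios gave a sum of 182 in liver and 58.8 in lung (108 in each under the deposited scaling), with 2 members above all other libraries in liver against 0. Without the highest member of a tissue the weighted paralogue number was 7.84 in kidney and 8.57 in liver, which turned their order, and with log2 weights it was 6.68 in liver. In 4 libraries alone (kidney 1, lung 2 and both of small intestine) 12 members were called higher and 2 lower in kidney against lung (10 and 1 without the liver-high genes), and 13 higher in kidney against small intestine (11 without them). The cause of these moves was not tested.

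Libraries of different tissues shared replicate numbers, but the labels do not tie a number to a mouse, and the correlation of deviations between tissues ran from -0.22 to 0.05. With the replicate as a block the counts of called members were 11 for kidney, 5 for lung, 8 for liver, 8 for small intestine, 15 for kidney against lung, 13 for kidney against small intestine and 5 for small intestine against lung, as without it. At the depth of these libraries, members with fewer than 3 reads were not detectable, and their absence is not shown.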
